A study of Glycine max with 4 samples.

Results

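In soybean shoot tips, 86 genes carried many reads in each of 3 transgenic plants and far fewer in the one untransformed plant sequenced beside them. The genes were chosen by these same read values: a gene entered the set when its normalized count was at least 50 in each transgenic library and the lowest of the 3 was at least 8 times the untransformed value plus 1. A normalized count is a read count divided by a size factor that evens out library depth. The set holds 86 of the 56044 genes tabulated and 0.276% of the 31111 genes with at least 50 normalized counts in every transgenic library. Their low values in the untransformed library are therefore described here without a test. The mirrored rule, with the untransformed library at 50 or more and at 8 times the highest transgenic value plus 1, selected 1110 genes. They were 3.44% of the 32311 genes with at least 50 normalized counts in the untransformed library.

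All 4 plants were soybean, Glycine max, of cultivar Thorne, grown in a greenhouse for 1 month, and RNA came from 5 cm tips that included young trifoliate leaves. Tagged 1 and tagged 2 were transgenic plants positive for an mmPing20F insertion on chromosome 8 at position 2785626; the genome build of that position is not given in the sources used here. The transgenic untagged plant lacked this insertion and, by the study's design text, carried the construct that expresses the transposase. The untransformed plant had neither. The study set the tagged pair (n = 2) against the other two plants to find genes that respond to the insertion.

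mPing is a short rice element that has no transposase of its own and moves when the enzyme is supplied. An activation tag built on it carries sequences meant to raise transcription of genes beside its landing site. Soybean descends from an ancient polyploid, so many of its genes have close copies elsewhere in the genome, and others stand in tandem arrays of related copies. In identifiers such as Glyma.15G239700 the chromosome stands before the letter G, followed by a number that increases in map order. Neither the files nor the RefSeq table at hand, which matched 0 of these identifiers, give them a name. No gene is therefore named by function, the tissue label was not checked against marker genes, and levels are not compared per transcript length.

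Library totals lay between 27900266 and 49210060 counts. The untransformed library stood apart from the other 3 across the whole table, and it is a single library. Among the 31111 genes at 50 or more in each transgenic library, 14.7% had a lowest transgenic value at least 2 times the untransformed value plus 1, and 2.96% at least 4 times. Transgene status, plant line, growth and handling of that one plant cannot be told apart. In bulk tissue, fewer cells of a type and less RNA per cell cannot be told apart either.

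In the transgenic plants the 86 genes ranged from 52.5 to 64284 normalized counts. The median normalized count was 239 in tagged 1, 216 in tagged 2 and 227 in the transgenic untagged plant, against 18.8 in the untransformed plant. Within each library, the median gene of the set ranked at percentile 59.0, 57.7 and 58.5 of all genes in the transgenic plants, and at percentile 34.8 in the untransformed one. These ranks run over all tabulated genes, including 8248 with no count in any library. Together they took 0.921% of the counts of tagged 1, 0.744% of tagged 2, 0.742% of the transgenic untagged library and 0.0626% of the untransformed library. The ratio on which they were chosen, the lowest transgenic value over the untransformed value plus 1, had a median of 9.52 and ran from 8.03 to 104. Its lower and upper quartiles were 8.57 and 13.4, so most of the set lay close to the limit. The ratio reached 16 in 14 genes, 32 in 5 and 64 in 2.

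**Figure D1:**
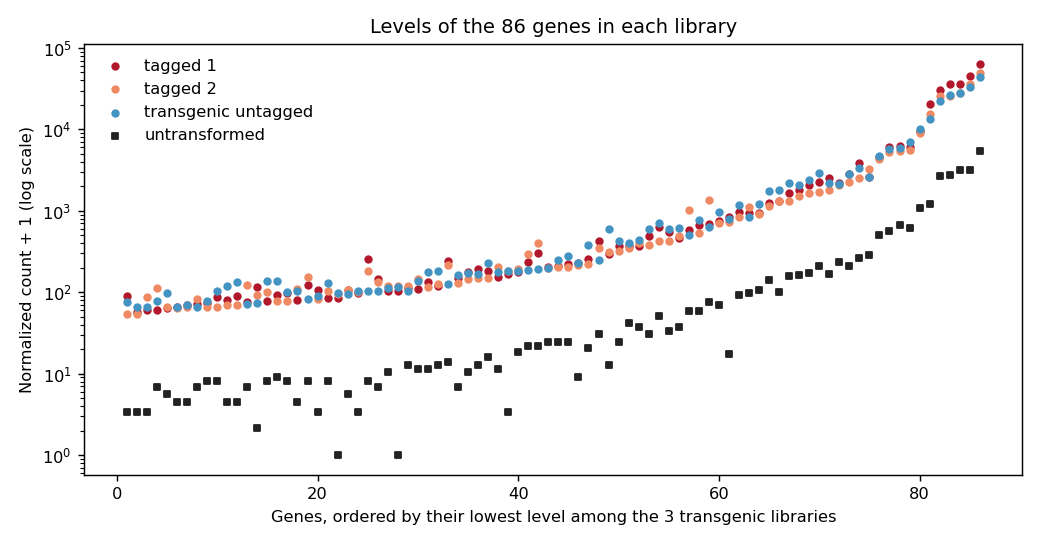
Normalized count plus 1 of each of the 86 genes (vertical axis, log scale) in the 4 libraries, with genes ordered by their lowest value among the transgenic libraries. The transgenic points lie close together and the untransformed points run below them, from 0 to 5370.2 normalized counts.

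Most of these genes were low but still read in the untransformed plant. Of the 86, 2 had no count there, 12 had between 1 and 3 counts, and 39 had at most 10, those at 0 included. At the other end, 21 genes had over 100 raw counts in the untransformed library and 6 had over 1000. Low in this set thus ranged from a complete absence of reads to deep read coverage.

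The genes at 0 in the untransformed library were Glyma.07G231200 and Glyma.10G013000, which also had the largest selection ratios. Glyma.07G231200 had 104, 118 and 114 normalized counts in tagged 1, tagged 2 and the transgenic untagged plant. Its transgenic mean of 112 ± 7.25 (SD, n = 3) was at least 31.7-fold higher when a floor of 3 counts is taken for the untransformed library. The pooled ratio of transgenic to untransformed reads had a lower bound of 25.3 by the exact 95% counting interval, which also takes in the error of the transgenic counts. Glyma.10G013000 had 85.0, 94.2 and 96.6 normalized counts, and its mean of 91.9 ± 6.13 was at least 26.1-fold higher than the same floor, with a lower counting bound of 20.8. Both genes varied little among the transgenic plants. Floors and counting intervals cover counting error only.

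Among the 12 genes with 1 to 3 counts, 2 stood out for the size of their ratio and were picked out with those values in view. Glyma.15G223500 had 168, 184 and 180.4 normalized counts in the transgenic libraries and 2 raw counts in the untransformed one. Its pooled transgenic over untransformed ratio was 74.7, with an exact 95% counting interval of 20.6 to 619. Glyma.11G185200 had 117, 91.8 and 73.2 normalized counts against 1 raw count, a pooled ratio of 83.2 with an interval of 14.8 to 3297. The width of both intervals comes from the few untransformed counts. Over the whole set, the lower bound of this interval was at least 8 in 55 of the 86 genes. The genes were chosen on these same counts and at the same limit of 8. The intervals take no account of that choice, so the 55 are a description and not a test.

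The reads of the set were concentrated in 6 genes with at least 10000 normalized counts in every transgenic library, which held 76.0% of its counts in tagged 1 and 73.0% in the untransformed library. The highest was Glyma.15G239700, at 64284, 49719 and 43498 normalized counts in tagged 1, tagged 2 and the transgenic untagged plant, beside 5370.2 without transformation. Its transgenic mean, 52500.4 ± 10668.5 (SD, n = 3), was 9.78-fold above the untransformed value. Glyma.15G239200 came next in its lowest value, at 44958, 35828 and 32821 against 3141, a 12.1-fold difference of the mean. The remaining 4 were Glyma.15G239500, Glyma.03G170900, Glyma.08G293800 and Glyma.15G239300, with differences of the mean of 9.59, 10.7, 9.77 and 13.5-fold. Of these 6 genes, 4 carry numbers within a single short stretch of chromosome 15. All 6 were highest in tagged 1, whereas 19 of the other 80 genes were.

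By count range, 24 of 3402 eligible genes (0.705%) with a lowest transgenic value from 50 to 100 belonged to the set. From 100 to 1000 the share was 40 of 20577 (0.194%), from 1000 to 10000 it was 16 of 6918 (0.231%), and at 10000 or more it was 6 of 214 (2.80%). The largest selection ratios sat in the lower ranges: at 1000 or more no ratio exceeded 13.04. Low counts in the untransformed library leave those large ratios less precise.

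Members that lay side by side in identifier order formed 4 runs, each of 2 genes, on chromosomes 2, 3, 11 and 15. They held 8 of the 86 genes (9.30%), whereas 0.284% of the other eligible genes had a member of the set as a direct neighbour. Allowing a gap of up to 10 identifiers added 3 genes and no further place, so 11 genes (12.8%) lay in 4 groups, against 2.81% of the other eligible genes with a member that near. The other 75 genes had no member within 20 identifiers. How far reads were shared between similar neighbouring copies was not tested, and the strand setting of the counting is not given in the sources used here.

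The group on chromosome 15 spanned 6 identifiers, from Glyma.15G239200 to Glyma.15G239700, and 4 of them passed the rule. Glyma.15G239300 had 20463, 15365 and 13350 normalized counts in tagged 1, tagged 2 and the transgenic untagged plant against 1218 in the untransformed plant. Glyma.15G239500 had 35621, 27741 and 27648 against 3162. The 2 genes of the stretch that did not pass were low in the untransformed plant as well. Glyma.15G239400 had 158, 174 and 175 normalized counts against 25.8, and Glyma.15G239600 had 43903, 32566 and 33487 against 4691, with selection ratios of 5.88 and 6.94. All 6 genes were therefore between 6.54 and 13.5-fold above the untransformed plant in their transgenic mean. Beside the stretch, Glyma.15G239100 was sparsely read, at 30.3, 27.4 and 28.7 against 9.39, and Glyma.15G239000, Glyma.15G239800 and Glyma.15G239900 had no count in any library.

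**Figure D2:**
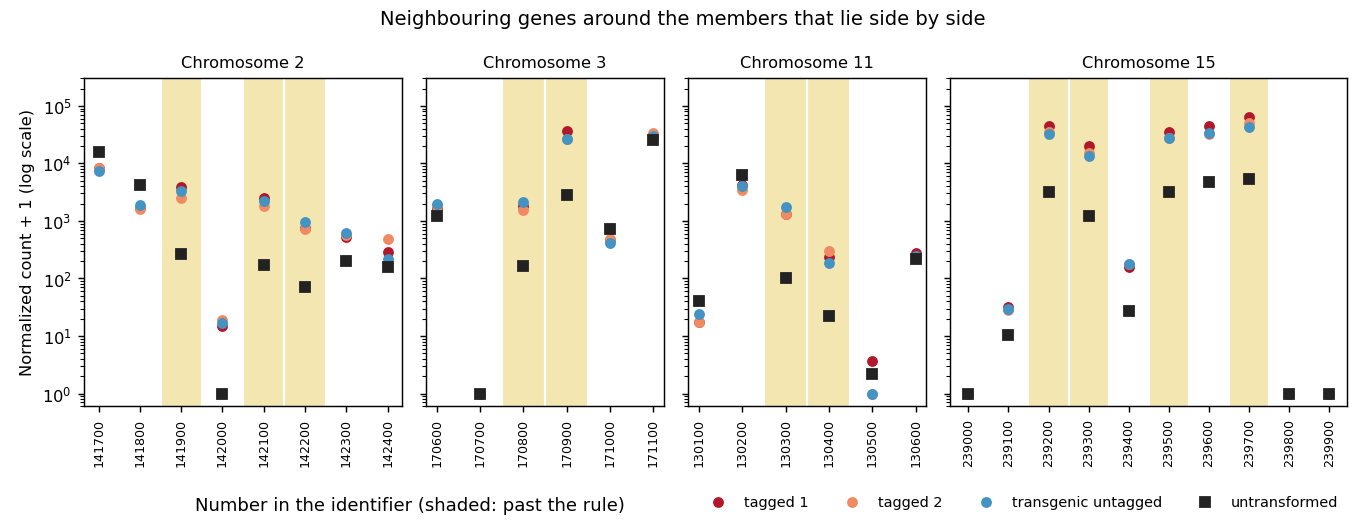
Normalized count plus 1 (log scale) for the genes in and around the 4 groups of neighbouring members, in identifier order, for the 4 libraries; shading marks genes that passed the rule. On chromosome 15 the unshaded genes Glyma.15G239400 and Glyma.15G239600 also have their lowest value in the untransformed library, by 6.54 and 7.81-fold from the transgenic mean.

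On chromosome 2, 3 genes passed within 4 identifiers. Glyma.02G141900 had 3916, 2498 and 3332 normalized counts in the transgenic libraries against 261 in the untransformed one. Glyma.02G142100 had 2501, 1813 and 2185 against 169, and Glyma.02G142200 had 755, 717 and 976 against 69.3. Their transgenic means were 12.5, 12.8 and 11.8-fold above the untransformed value. Close folds are not particular to neighbours, since the rule bounds them from below and the selection ratios of the whole set had quartiles of 8.57 and 13.4. Between them, Glyma.02G142000 had 14.2, 17.9 and 15.9 against 0, under the level limit. On one side Glyma.02G141800 went the other way, at 1681, 1607 and 1855 against 4221, as did Glyma.02G141700 beyond it. On the other side Glyma.02G142300 and Glyma.02G142400 were also lower in the untransformed plant. Their transgenic means were 2.82 and 2.08-fold above the untransformed value.

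On chromosome 3, Glyma.03G170800 had 1796, 1528 and 2101 normalized counts against 162, and Glyma.03G170900 had 36154, 26041 and 26631 against 2773. The transgenic means of this pair were 11.2 and 10.7-fold above the untransformed value. The next gene, Glyma.03G171000, was at 459, 480.5 and 417 against 712. On chromosome 11, Glyma.11G130300 had 1329.8, 1315 and 1778 against 99.8, and Glyma.11G130400 had 235, 298 and 185 against 21.1. Their means were 14.8 and 11.3-fold above the untransformed value, whereas the gene before them, Glyma.11G130200, was at 4248, 3461 and 3993 against 6289.7. Glyma.11G130100, before that, was also higher in the untransformed plant. After the pair, Glyma.11G130500 had hardly any reads and Glyma.11G130600 had a transgenic mean 1.17-fold above the untransformed value.

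All 20 chromosomes held at least 1 gene of the set, and the unplaced scaffolds held none of it among 156 eligible genes. Chromosome 15 held the most, 10 genes or 11.6% of the set (95% exact binomial interval 5.72 to 20.3, over genes that are not independent), while it held 4.71% of the eligible genes. Chromosome 20 followed with 8 genes, or 9.30% of the set against 4.42% of the eligible genes. As a share of eligible genes, chromosome 15 stood at 0.683%, chromosome 20 at 0.582% and chromosome 12 at 0.0756%, with 1 gene. The 4 genes of the stretch described above account for part of the count on chromosome 15. By contrast, no members on chromosome 20 were within 20 identifiers of each other. The lead of chromosome 15 depended on the fold limit. Under TMM scaling it again held the most, 12 genes or 11.7%. At a fold limit of 4, chromosome 13 held the most, 68 genes or 7.38%, beside 6.97% of the eligible genes. At a fold limit of 16 no chromosome held more than 1 gene. Chromosome 8, which carries the tag in tagged plants, held 7 genes, 0.319% of its eligible genes.

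**Figure D3:**
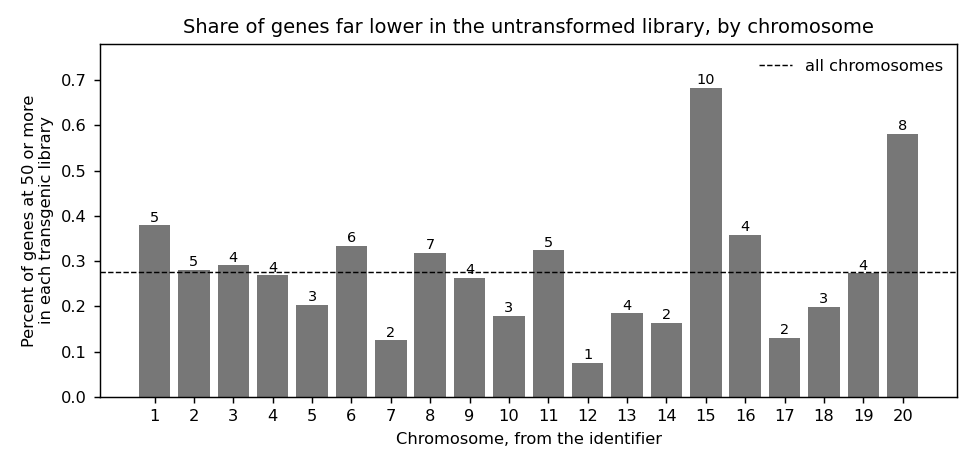
Share of eligible genes (at least 50 normalized counts in each transgenic library) that belong to the set, in percent, by chromosome, with the number of genes above each bar and the share over all chromosomes, 0.276%, as a dashed line. Chromosomes 15 and 20 stand highest and chromosome 12 lowest.

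The 3 transgenic plants were somewhat further from each other in these genes than in eligible genes at large. The ratio of their highest to their lowest normalized count had a median of 1.37 over the 86 genes, with quartiles of 1.21 and 1.57 and a range of 1.02 to 2.502. Over all eligible genes the median was 1.22 and the quartiles were 1.13 and 1.38. The ratio exceeded 1.5 in 31 genes of the set (36.0%) and in 15.3% of eligible genes, and it exceeded 2 in 5 genes of the set (5.81%) and in 3.50% of eligible genes. The median was above that of eligible genes in each count range, at 1.501 against 1.44 from 50 to 100, at 1.36 against 1.22 from 100 to 1000, at 1.31 against 1.18 from 1000 to 10000 and at 1.39 against 1.23 above that. These are descriptions, since the rule acts on the lowest of the same 3 values.

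The extremes of this spread were both genes of modest count. Glyma.11G229700 was the most variable, at 255, 180.0 and 102 normalized counts in tagged 1, tagged 2 and the transgenic untagged plant, and at 7.05 without transformation. Glyma.01G032800 was the least variable, at 64.7, 63.2 and 64.7 against 3.52.

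The transgenic untagged plant had the highest of the 3 transgenic values in 42 genes of the set (48.8%) and in 39.4% of eligible genes. Tagged 2 had the lowest in 47 genes (54.7%), against 34.7% of eligible genes. Tagged 1 was highest in 25 genes (29.1%), against 25.1% of eligible genes, and 6 of the 25 were the genes of 10000 or more described above. The tagged pair differed from each other by a median ratio of 1.18 in the set and 1.11 among eligible genes, and by at most 1.97 within the set.

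**Figure D4:**
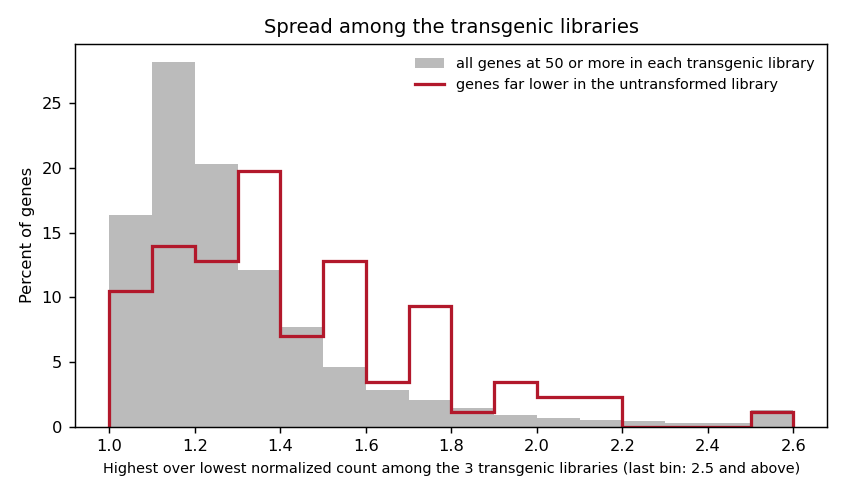
Distribution of the highest over the lowest normalized count among the 3 transgenic libraries, as percent of genes, for the 86 genes (red outline) and all 31111 eligible genes (grey). The red outline lies to the right of the grey, with medians of 1.37 and 1.22.

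Between the tagged plants and the transgenic untagged plant none of the set passed. The rule set no direction in this contrast, but all 3 libraries had to pass its limits and their lowest value entered it, so the test is not independent of the choice of genes. The contrast was tested with edgeR's quasi-likelihood test over 39528 genes, with the single untagged library assumed to vary like the tagged pair. Over all genes 0.0101% were called at an adjusted p of 0.05, 0.00506% as higher and 0.00506% as lower in tagged plants, and 0 of the 86 genes were, with a smallest adjusted p of 0.200 in edgeR. DESeq2 and limma-voom also called 0 of the 86. Unadjusted, 15 genes of the set (17.4%) had p under 0.05, of which 5 were higher and 10 were lower in the tagged plants; the shares among all tested genes were 9.48%, 5.9% and 3.57%, and among eligible genes 10.2%, 5.94% and 4.26%. The median log2 fold change of the set was -0.065, with quartiles of -0.38 and 0.15, and that of all tested genes was 0.0083. A change of over 1 on the log2 scale occurred in 1 of the 86 genes, 1.16%, and in 1.45% of eligible genes.

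The smallest p among genes lower in tagged plants came with a close tagged pair. Glyma.17G248300 had 298 and 315 normalized counts in tagged plants and 604 in the transgenic untagged plant, beside 11.7 in the untransformed plant. Its log2 fold change was -0.97 ± 0.16 (SE), with an unadjusted p of 6.0e-04 and an adjusted p of 0.200 from edgeR. With no filter on low counts, edgeR's adjusted p for it was 0.0204, the only call in the set under the settings tried; the range over its alternatives was 0.0204 to 0.248. Glyma.20G145300 had 303 and 403 normalized counts in tagged plants against 190.0 in the transgenic untagged and 21.1 in the untransformed plant. Its log2 fold change was 0.89 ± 0.24, at an adjusted p of 0.346 from edgeR. Glyma.11G229700 had the widest change, 1.11 ± 0.31, with an edgeR adjusted p of 0.365. Its tagged values, 255 and 180.0, lay further from each other than those of Glyma.17G248300.

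**Figure D5:**
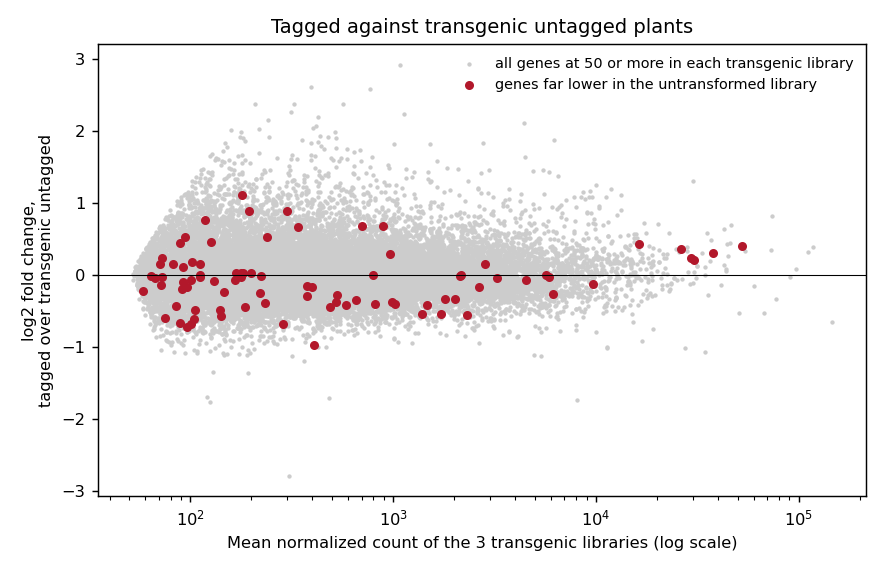
log2 fold change of tagged over transgenic untagged plants against the mean normalized count of the 3 transgenic libraries (log scale), for the 86 genes (red) and all eligible genes (grey). The red points lie between -0.97 and 1.11, inside the cloud of all genes.

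In the study's own grouping, where the transgenic untagged and the untransformed plant form the control group, most of these genes had a higher mean in the tagged plants; the rule itself holds one of the control values far under the other 3. The tagged mean over the mean of both untagged plants had a median of 1.78 in the set and ran from 0.995 to 3.99, against a median of 0.981 over eligible genes. It reached 1.5 in 60 of the 86 genes (69.8%) and in 9.05% of eligible genes. For Glyma.15G239700 it was 2.33, from 57002 ± 10299 (SD, n = 2) in tagged plants and single untagged values of 43498 and 5370.2. For Glyma.17G248300 it was 0.995, since the high transgenic untagged value balanced the low untransformed one.

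The limits of the set were not marked by a gap. Glyma.19G171800, at 2277, 1706 and 2950.4 normalized counts against 211, was just inside the fold limit with a ratio of 8.03. Glyma.11G020600, at 65.4, 54.8 and 85.96 against 5.87, was just outside it with a ratio of 7.98. Between ratios of 7 and 8 there were 84 further genes, and between 8 and 9 there were 29 genes of the set. At the level limit, Glyma.01G049600 entered with a lowest value of 52.5 and Glyma.19G155800 stayed out with 49.9.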

How the data were processed

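RNA sequencing of 4 soybean libraries was analysed from 2 tables of the whole series. The authors deposited raw read counts per gene, whole numbers, and a scaled signal, in which counts are divided by a size factor for each library. Multiplying back gave whole numbers within 0.01 for 100% of values. The deposited table also holds a single fold ratio by the authors, not used here. CASAVA 1.8, HISAT2 2.1.0, HTSeq 0.6.1 and DESeq2 are named per the submitters' processing notes; the build, the annotation and whether counting used strand are not given there. Every row carried a gene identifier.

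The set of 86 genes and all choices below were made with earlier results of these data known. The deposited normalized counts gave the set, levels, runs and spread. Tagged and transgenic untagged plants were compared with edgeR 4.0.16 (R 4.3.3; TMM, default low-count filter, Benjamini-Hochberg adjustment at 0.05). Standard errors are the absolute log2 change over the square root of F. The alternatives tried included limma-voom (limma 3.58.1), DESeq2 1.42.0, other scalings, limits and filters, transgenic status as covariate, and leaving out libraries. In simulated data of the tagged comparison over 39113 genes, edgeR recovered 40% of genes changed 2-fold and 100% of those changed 4-fold. It called 3 unchanged genes. The changed genes were drawn only from genes with a mean of at least 100 raw counts over the transgenic libraries. Recovery at lower counts was not simulated, and the simulation assumed 1 dispersion for all genes. These shares therefore do not give the recovery to be had for the 86 genes.

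The labels do not say whether plants came from separate sowings. The p-values rest on the spread within the tagged pair, combined with information over all genes tested. The single transgenic untagged library adds no spread of its own. Chi-square per degree of freedom was 16.8 to 24.6 between transgenic libraries, above counting error. Between each of these and the untransformed library it was 242 to 314. Named genes were the 2 with the highest counts, the 2 with the largest ratios, members and neighbours of the runs (4 tied for 3 places), the extremes of spread and of p in each direction, and those at the limits; others were named after their values were seen. The planned lists of gene products and markers were not run, because no identifier could be matched to a name.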

Additional observations from a re-analysis of the deposited data

How the results depend on the processing

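The whole set rests on the single untransformed library, which cannot be left out, and on where its limits lie. The number of genes was 922 at a fold limit of 4 and 14 at 16, 138 at a level limit of 20, 159 under upper-quartile scaling, and 55 with the lower counting bound at least 8 (the last chosen after seeing the data). Upper-quartile scaling raised the median log2 ratio of transgenic to untransformed over eligible genes by 0.17, and TMM by 0.04. Both scalings raised the size factor of the untransformed library and lowered those of the transgenic libraries. Each ratio of the set could therefore only rise, and all 86 genes had to pass the rule again. Leaving out 1 transgenic library gave 108 to 165 genes, the highest without tagged replicate 2. These lists had to contain all 86, because the lowest value over fewer libraries cannot be smaller. Genes in runs numbered 79 at a fold limit of 4 and 0 at 16. The median spread was 1.18 to 1.28 over pairs of transgenic libraries, which is lower because a range over fewer libraries is smaller. The count of genes of the set past the threshold between tagged and transgenic untagged plants was 1 with no low-count filter and 0 under DESeq2, limma-voom, RLE scaling and the covariate; unadjusted it was 15. Over all genes 4 were called, against 8 with RLE scaling, 361 with no filter, 2 with the covariate, 234 in DESeq2 and 0 in limma-voom, where the median log2 change of the set stayed between -0.075 and -0.064. Leaving out a tagged library gave medians of -0.131 to -0.090, as values with no test. The cause of these changes was not tested. No paired analysis was possible because the labels link no tagged plant to the transgenic untagged plant, which was a single plant.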

Other observations

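With the fold limit lowered to 4, a choice that widens the set to 922 genes, 36 runs of neighbouring genes held 79 genes (8.57%), whereas 3.28% of the other 30189 eligible genes had one of the 922 as a direct neighbour, and 3 of the runs had 3 or more genes. The longest was the chromosome 15 stretch from Glyma.15G239200 to Glyma.15G239700, now complete with 6 genes. A run of 4 lay on chromosome 19 around Glyma.19G051000, a gene of the set with 6168, 5422 and 5968 normalized counts in tagged 1, tagged 2 and the transgenic untagged plant against 669 in the untransformed plant. Its neighbour Glyma.19G051100 had 58249, 57683 and 46352 against 6346, and Glyma.19G050900 had 4523, 3976 and 5108 against 589.5. Glyma.19G050800 completed the run, at 7569, 6595 and 6714 against 1055. A run of 3 lay on chromosome 2, where Glyma.02G110000 had 805, 503 and 775 against 72.8, Glyma.02G110100 had 426, 418 and 547 against 61.1, and Glyma.02G110200 had 158, 167 and 185 against 22.3. These genes were named after their values were seen, and their contrast was part of the choice.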
